A study of Mus musculus with 8 samples.

Results

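The genes described encode the nuclear subunits of the mitochondrial respiratory chain and of ATP synthase, and were measured in microglia, the macrophages that reside in the brain. Probe sets were taken when their single annotated gene symbol began with Nduf (complex I), Uqcr (complex III), Atp5 (complex V) or Cox followed by 4 to 8 (complex IV), and a gene with several probe sets entered with the probe set whose mean over the 8 arrays was highest. This gave 85 genes out of 19938 tested: 34 subunits of complex I, 8 of complex III, 16 of complex IV, 17 of complex V, the pair Ndufa4 and Ndufa4l2, and 8 genes that carry such a name without encoding a subunit. The microglia were sorted as CD11b-high, CD45-intermediate cells from whole brains of Swiss Webster mice at 17 weeks of age, 4 samples with the genotype MFP2 knockout and 4 with the genotype wild type, named control, all labelled female, with 1 microarray per sample. The knockout mice lack multifunctional protein-2, an enzyme of peroxisomal fatty acid beta-oxidation encoded by Hsd17b4. The sources used here do not describe the allele, whether the gene is missing in every tissue, or whether each sample is 1 animal, and the p-values therefore reflect the spread among these 8 samples, which may be technical. The question is how loss of MFP2 changes gene expression in microglia.

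Complex I passes electrons from NADH to ubiquinone, complex III passes them on to cytochrome c and complex IV to oxygen, and the proton gradient built on the way drives complex V, the ATP synthase. A few catalytic subunits carry the redox centres or the nucleotide-binding sites, while many small accessory subunits stabilise the complexes. Some are encoded by mitochondrial DNA, and the genes described here are all nuclear. Microglia use oxidative phosphorylation as well as glycolysis, and their balance is known to change with activation. Several complex IV subunits exist as a broadly expressed isoform and one restricted to muscle, lung or testis.

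Values are log2 expression values as deposited, with the base inferred from their range, and a gene is said to have risen when its limma p, adjusted over all 19938 genes, was under 0.05. The number of arrays, 4 per group, limits the precision. The array medians lay between 6.03 and 6.15. The targeted gene Hsd17b4 was at 4.76, 7.20, 5.21 and 5.20 in knockout 1 to 4, against 8.83, 9.09, 8.15 and 7.82 in control 1 to 4, with each knockout array below every control array (change -2.88 ± 0.44, SE, adjusted p = 0.00158). Control 1, labelled female, had Xist at 6.80 and the Y-linked Eif2s3y at 8.14, while the other 7 arrays had Xist at 10.56 to 10.99 and Eif2s3y at 2.78 to 2.99. Along the first principal component (48.7% of the variance) control 3 lay nearest the knockout arrays (9.62, against 23.2 to 24.7 for the other controls), and knockout 1 and 2 (-12.4 and -12.7) lay nearer the controls than knockout 3 and 4 (-26.0 and -30.2). The microglial markers had a log2 summed level of 14.42 to 14.65 in knockouts and 14.96 to 15.18 in controls, and 7 of 9 measured were lower in knockouts, such as Tmem119 at 11.69 to 11.99 in knockouts and 12.36 to 12.58 in controls. The other 2, Aif1 (change -0.05) and Fcrls (-0.44), did not pass (adjusted p = 0.835 and 0.423). In such bulk samples a different share of cells, RNA content per cell or expression of these genes within microglia cannot be told apart.

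Subunits of all 4 complexes rose in MFP2 knockout microglia. Of the 85 genes, 42 were higher in knockouts, 0 were lower and 43 did not pass the test, where 5.38% of all tested genes were higher and 4.17% lower. At an unadjusted limma p under 0.05, 57 were higher and 1, the complex I assembly factor Ndufaf7, was lower, where 10.3% of all tested genes were higher and 10.7% lower. The median log2 change over the 85 genes was 0.46, against -0.02 over all tested genes. Of the 85 genes, 66 had a mean log2 value of 8 or higher, and 40 of these rose. Among all 3972 tested genes at that level 12.7% were higher and 11.5% lower. By complex, 17 of 34 complex I subunits, 4 of 8 complex III subunits, 9 of 16 complex IV subunits and 11 of 17 complex V subunits were higher, with medians of 0.46, 0.57, 0.57 and 0.48. The difference between complexes was not tested. In 47 genes every knockout array lay above every control array, and in 0 genes every one lay below, while 7.09% of all tested genes had the knockouts above and 6.92% below. These 47 include all 42 that rose. The 25 further probe sets of 17 of these genes gave 18 higher and 0 lower calls. RefSeq lists pseudogenes under the gene's own name with the ending -ps for 9 of the genes. Of these 9, 5 rose (Atp5c1, Atp5k, Atp5l, Cox5b and Uqcrh), and a probe set may not separate such copies. Pseudogenes under other names were not searched, so more of the genes may have them.

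**Figure D1:**
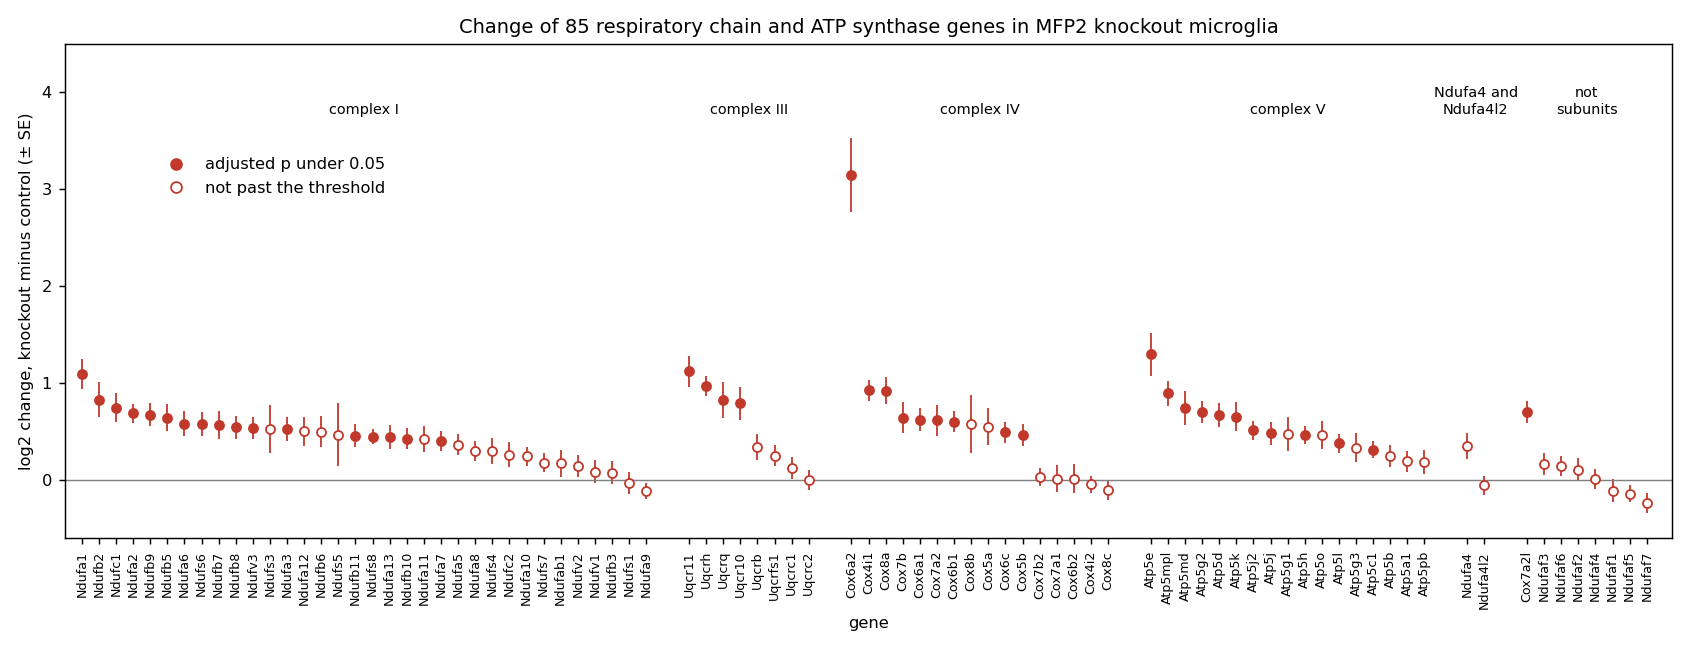
Each point is the log2 change of 1 gene, knockout minus control, with its SE from the limma fit (n = 4 arrays per group), ordered within each complex. Filled points passed an adjusted p of 0.05 and open points did not; 42 of 85 are filled, all above 0, and Cox6a2 stands at 3.15.

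The changes were unequal among the knockout arrays. The median change of the 42 genes that rose was 0.63, and 4 of them, Ndufa1, Uqcr11, Cox6a2 and Atp5e, changed by more than 1 log2 unit. Relative to the control mean of each gene, the median over the 85 genes was 0.20, 0.28, 0.59 and 0.62 in knockout 1 to 4, against -0.02, 0.00, 0.03 and -0.02 in control 1 to 4. All 4 knockout arrays thus lay above the controls, knockout 3 and 4 most. The same median over all tested genes lay between -0.04 and 0.01 in every array. Without control 1 the count of genes that rose was 32, and without control 3 and knockout 2 together it was 40. Leaving out control 1, control 3 and knockout 2, a choice made after seeing the data, gave 24.

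The proximal promoters of these genes were searched for short sequence motifs of factors known to act on respiratory chain genes. Of the 85 genes, 70 had a promoter window in RefSeq (build GRCm38.p6), from 250 bases before to 50 bases after the start. The windows shown here are those of the subunit with the lowest adjusted p in each complex among the called genes with a window, written 5′ to 3′ as in the table, with capitals marking motif matches on either strand:
Ndufa1, chrX:37191189-37191488 (- strand): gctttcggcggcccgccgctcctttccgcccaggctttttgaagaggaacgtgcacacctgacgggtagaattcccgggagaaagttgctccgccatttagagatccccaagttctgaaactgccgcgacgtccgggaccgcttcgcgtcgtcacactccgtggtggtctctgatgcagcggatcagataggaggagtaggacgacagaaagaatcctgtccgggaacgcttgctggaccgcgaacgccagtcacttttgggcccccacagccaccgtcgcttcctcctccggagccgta
Uqcrh, chr4:116075021-116075320 (- strand): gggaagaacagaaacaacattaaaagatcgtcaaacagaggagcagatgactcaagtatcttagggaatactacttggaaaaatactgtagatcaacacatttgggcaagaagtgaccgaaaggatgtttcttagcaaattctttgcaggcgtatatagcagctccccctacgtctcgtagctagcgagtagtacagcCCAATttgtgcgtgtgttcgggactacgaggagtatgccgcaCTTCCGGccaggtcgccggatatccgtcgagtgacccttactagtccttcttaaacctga
Cox8a, chr19:7217567-7217866 (- strand): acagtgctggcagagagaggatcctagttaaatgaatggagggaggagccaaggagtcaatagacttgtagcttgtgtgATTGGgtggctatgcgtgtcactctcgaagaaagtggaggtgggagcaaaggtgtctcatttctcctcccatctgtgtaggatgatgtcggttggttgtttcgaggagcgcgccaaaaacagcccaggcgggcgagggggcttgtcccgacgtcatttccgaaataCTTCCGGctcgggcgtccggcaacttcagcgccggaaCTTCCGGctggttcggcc
Atp5g2, chr15:102670998-102671297 (- strand): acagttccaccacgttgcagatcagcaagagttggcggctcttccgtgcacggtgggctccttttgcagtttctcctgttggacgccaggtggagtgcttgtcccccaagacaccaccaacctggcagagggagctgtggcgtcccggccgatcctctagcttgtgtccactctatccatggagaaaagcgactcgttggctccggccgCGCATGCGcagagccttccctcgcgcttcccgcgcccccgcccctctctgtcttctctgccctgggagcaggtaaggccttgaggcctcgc
The ETS core CCGGAAG, bound by the GA-binding protein, has 2 matches in the Cox8a window and 1 in that of Uqcrh. Both of those windows also hold a CCAAT box. The Atp5g2 window holds the palindromic centre of the NRF1 motif, with 1 overlapping match of GCATGCG on each strand, and the Ndufa1 window holds none of the 4 motifs. Over the 70 genes, CCGGAAG was found in 16 (22.9%), against 9.93% of 27025 genes in the table. It was present in 13 of 35 that rose and in 3 of 35 that did not pass the test. GCATGCG was found in 12 (17.1%), against 4.01% of all genes, in 7 that rose and 5 others. The YY1 core AAGATGG was found in 10 (14.3%, against 7.28%), and the CCAAT box in 30 (42.9%, against 41.1%). These counts describe letters in a window and were not tested. The 27025 genes include non-coding ones.

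In complex I, 16 of 28 measured accessory subunits were higher, and so was 1 of 6 core subunits, which hold the flavin and the iron-sulfur clusters. The difference between these shares was not tested. The small membrane-arm subunit Ndufa1, needed for assembly of the complex, was at 9.58, 9.95, 10.14 and 10.43 in knockout 1 to 4, against 8.77, 8.95, 9.15 and 8.84 in control 1 to 4. The lowest knockout array lay 0.43 above the highest control array, a change of 1.10 ± 0.16 (SE, adjusted p = 0.00103). Ndufa2, an accessory subunit of the matrix arm, measured 9.34, 9.44, 9.61 and 9.75 in knockout 1 to 4, against 8.79, 8.93, 8.85 and 8.80 in control 1 to 4. Its control arrays spread over 0.14 log2 units, and the change was 0.69 ± 0.10 (adjusted p = 0.00115). Ndufa2 lies on chromosome 18, as Hsd17b4 does, with 97 tested genes between them, and so does Atp5a1, with 162 between, which did not pass. Ndufb9, an accessory subunit of the membrane arm, had log2 values of 9.26, 9.18, 9.64 and 9.66 in knockout 1 to 4, against 8.81, 8.77, 8.76 and 8.69 in control 1 to 4 (change 0.68 ± 0.12).

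Ndufs8, a core subunit that carries iron-sulfur clusters, was at 8.99, 9.15, 9.02 and 9.13 in knockout 1 to 4, against 8.57, 8.66, 8.63 and 8.63 in control 1 to 4. Both groups were tight and stood apart, with a change of 0.45 ± 0.08 (adjusted p = 0.00395). The small accessory subunit Ndufc1 measured 8.53, 8.60, 9.13 and 9.25 in knockout 1 to 4, against 8.13, 8.15, 8.07 and 8.18 in control 1 to 4, with knockout 3 and 4 highest (change 0.75 ± 0.15). The other 12 accessory subunits that rose changed by 0.40 (Ndufa7) to 0.83 (Ndufb2). They were Ndufv3 (0.54), which sits near the NADH-oxidising end, the zinc-binding Ndufs6 (0.57), Ndufa13 (0.44), also known as GRIM-19, Ndufa3 (0.53), Ndufa6 (0.58), Ndufb5 (0.64), Ndufb7 (0.57), Ndufb8 (0.54), Ndufb10 (0.43), Ndufb11 (0.46), Ndufa7 and Ndufb2. Ndufa13 kept its call in 1 of the 8 fits that left out 1 array, Ndufb10 in 2, Ndufb7 and Ndufa7 in 3, and Ndufa3 and Ndufb11 in 4, while Ndufv3, Ndufs6, Ndufa6, Ndufb5, Ndufb8 and Ndufb2 kept theirs in all 8. The second probe set of Ndufb11 did not pass (0.33, adjusted p = 0.0680).

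The remaining core subunits did not pass the test. Ndufs1, the largest iron-sulfur subunit, had log2 values of 7.65, 7.72, 7.80 and 7.76 in knockout 1 to 4, against 7.93, 7.99, 7.50 and 7.61 in control 1 to 4, a change of -0.03 ± 0.11 with overlapping groups. Ndufv1, which binds NADH and the flavin, averaged 8.21 ± 0.09 in knockouts and 8.12 ± 0.25 in controls (SD, n = 4 each), and Ndufv2 changed by 0.15 ± 0.11. Ndufs7 changed by 0.18 ± 0.10. Ndufs3 changed by 0.53 ± 0.25, with knockout 2 at 10.33 and the other knockout arrays at 8.85 to 9.15. Among accessory subunits that did not pass, Ndufc2 was at 10.28, 10.43, 10.75 and 10.83 in knockout 1 to 4, against 10.13, 10.38, 10.27 and 10.47 in control 1 to 4 (change 0.26 ± 0.13). Ndufs5 was at 9.60 to 10.58 in knockouts, against 8.99 to 9.23 in control 2 to 4 and 10.68 in control 1. Ndufa9 was the one measured accessory subunit with a negative change, -0.11 ± 0.08 (adjusted p = 0.524). The changes of the other 9 were 0.51 for Ndufa12, 0.50 for Ndufb6, 0.42 for Ndufa11, 0.37 for Ndufa5, 0.30 for Ndufa8, 0.30 for Ndufs4, 0.25 for Ndufa10, 0.17 for the acyl carrier protein Ndufab1 and 0.08 for Ndufb3. In Ndufa5 and Ndufa8 the groups stood apart all the same. The second probe set of Ndufa11 was higher (0.52, adjusted p = 0.0190).

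The complex III subunits that rose were all small ones. Uqcrh, the hinge protein that contacts cytochrome c1, measured 11.17, 10.98, 11.18 and 11.06 in knockout 1 to 4, against 10.06, 10.16, 10.36 and 9.92 in control 1 to 4. The gap between the groups was 0.62, and the change of 0.97 ± 0.11 had the lowest adjusted p of the 85 genes (0.000290). The small accessory subunit Uqcr11 had log2 values of 9.05, 9.50, 9.79 and 9.88 in knockout 1 to 4, against 8.41, 8.39, 8.65 and 8.28 in control 1 to 4, a change of 1.13 ± 0.16 or 2.18-fold. Uqcr10, also a small accessory subunit, was at 9.44, 9.54, 9.89 and 10.15 in knockout 1 to 4, against 8.63, 8.96, 9.28 and 8.99 in control 1 to 4 (change 0.79 ± 0.17). Uqcrq, a ubiquinone-binding protein, measured 9.50, 9.54, 9.88 and 10.21 in knockout 1 to 4, against 8.41, 9.11, 9.22 and 9.09 in control 1 to 4, with control 1 far below the other controls (change 0.83 ± 0.19). In none of these 4 did the groups overlap. The fifth small subunit, Uqcrb, changed by 0.34 ± 0.14 (adjusted p = 0.169).

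The larger complex III subunits did not pass the test. Uqcrc2, a core protein of the matrix side, had log2 values of 8.97, 9.12, 9.06 and 9.32 in knockout 1 to 4, against 9.28, 8.99, 9.12 and 9.07 in control 1 to 4, with a change of 0.0013 ± 0.10 and overlapping groups. Its partner Uqcrc1 changed by 0.13 ± 0.12. Uqcrfs1, the Rieske iron-sulfur protein, changed by 0.25 ± 0.10 (adjusted p = 0.177).

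**Figure D2:**
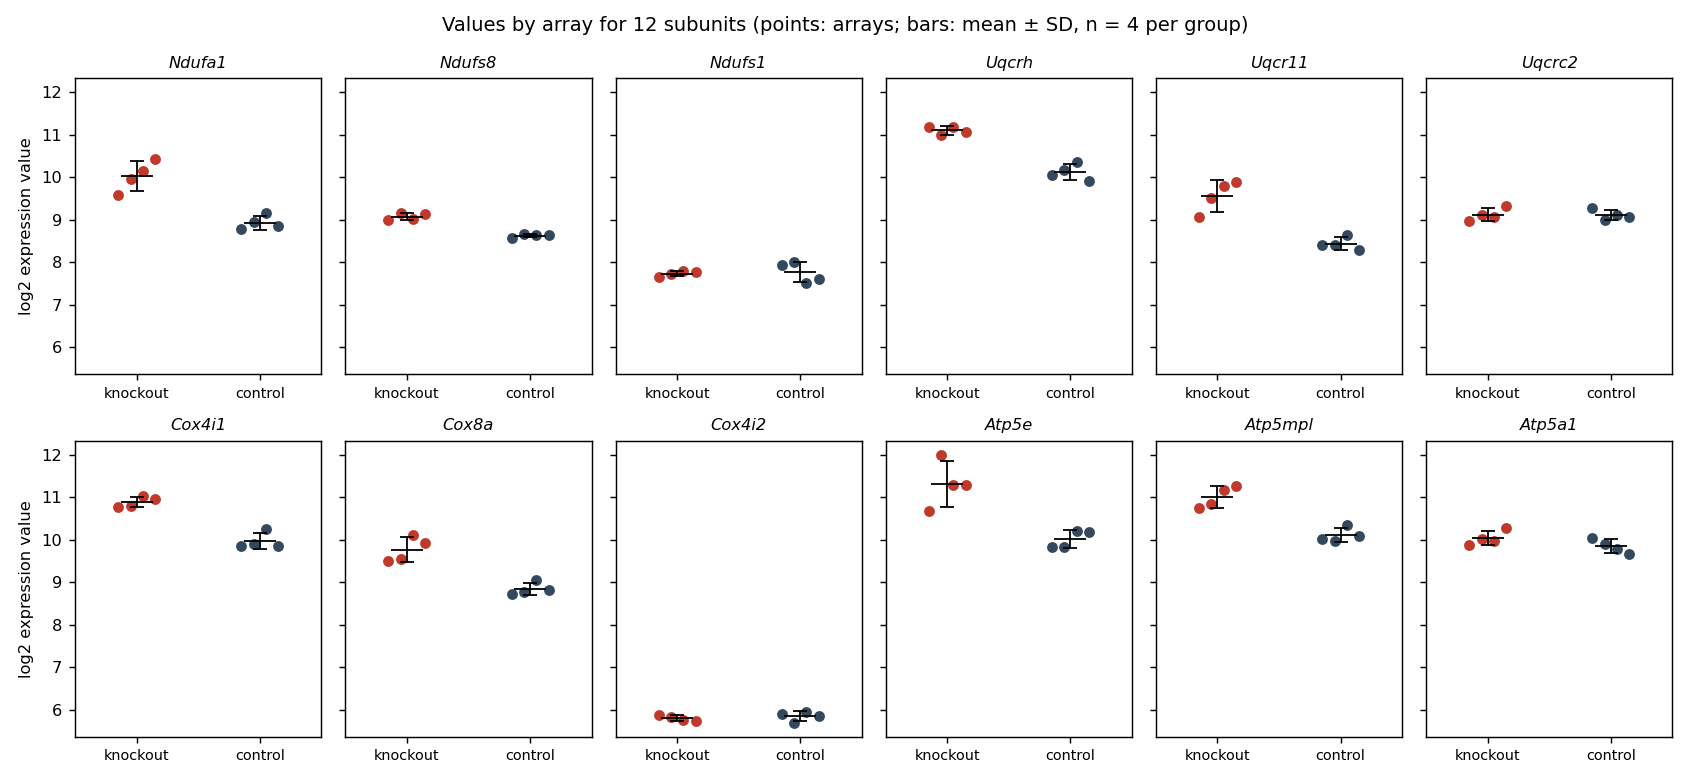
Points are log2 expression values of single arrays and bars are the mean ± SD (n = 4 per group), knockout left of control, for 12 subunits. Ndufa1, Ndufs8, Uqcrh, Uqcr11, Cox4i1, Cox8a, Atp5e and Atp5mpl have every knockout array above every control array, and Ndufs1, Uqcrc2, Cox4i2 and Atp5a1 have overlapping groups.

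In complex IV, 8 of the 9 broadly expressed subunits rose, and in all 9 every knockout array was above every control array. Cox4i1, the broadly expressed isoform of subunit 4, was at 10.77, 10.80, 11.04 and 10.96 in knockout 1 to 4, against 9.85, 9.90, 10.25 and 9.87 in control 1 to 4. Control 3 was the highest control and still 0.53 below the lowest knockout array; the change was 0.93 ± 0.11 (adjusted p = 0.000433). Cox8a, the broadly expressed isoform of subunit 8, measured 9.49, 9.55, 10.12 and 9.92 in knockout 1 to 4, against 8.73, 8.77, 9.07 and 8.81 in control 1 to 4 (change 0.92 ± 0.14, adjusted p = 0.00139). Cox6b1, which faces the intermembrane space near the cytochrome c site, had log2 values of 11.50, 11.55, 11.80 and 11.72 in knockout 1 to 4, against 10.92, 10.91, 11.26 and 11.07 in control 1 to 4 (change 0.60 ± 0.11). Cox6a1, the liver-type isoform of subunit 6a, was at 11.21, 11.71, 11.49 and 11.64 in knockout 1 to 4, against 10.73, 10.84, 10.89 and 11.08 in control 1 to 4 (change 0.62 ± 0.12). These groups stood apart, but after quantile normalization of the deposited values the calls of Cox6b1 (change 0.17, adjusted p = 0.290), Cox6a1 (0.27, adjusted p = 0.234) and Cox6c (0.14, adjusted p = 0.402) were lost. After cyclic loess those of Cox6a1 (0.38, adjusted p = 0.0668), Cox6c (0.25, adjusted p = 0.0942) and Cox5b (0.28, adjusted p = 0.0820) were lost. The median change of the 16 complex IV subunits was 0.31 after quantile normalization and 0.36 after cyclic loess.

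Cox7a2, the broadly expressed isoform of subunit 7a, measured 9.07, 8.84, 9.37 and 9.74 in knockout 1 to 4, against 8.56, 8.57, 8.73 and 8.70 in control 1 to 4 (change 0.62 ± 0.16). The small membrane subunit Cox7b had log2 values of 10.11, 9.86, 10.61 and 10.63 in knockout 1 to 4, against 9.68, 9.67, 9.75 and 9.52 in control 1 to 4 (change 0.65 ± 0.16). In both, knockout 3 and 4 were the highest arrays, and the call was lost in 4 and 5 of the 8 fits without 1 array. The zinc-binding subunit Cox5b and the membrane subunit Cox6c rose by 0.46 and 0.49, and Cox5b lost its call in 4 of those 8 fits. Cox5a, which did not pass, changed by 0.55 ± 0.19 (adjusted p = 0.102).

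Of the 7 isoforms of complex IV subunits that are restricted to some tissues, only Cox6a2 passed the test in the limma fit. Cox6a2, the heart and skeletal muscle isoform of subunit 6a, was at 11.34, 11.26, 11.72 and 11.28 in knockout 1 to 4, against 8.05, 7.68, 9.78 and 7.51 in control 1 to 4. Every knockout array exceeded every control array by at least 1.48, and control 3 stood 1.73 above the next control. The change of 3.15 ± 0.38, or 8.86-fold (adjusted p = 0.000452), was the largest of the 85 genes. It was 3.66 without control 3 and between 2.90 and 3.19 without any other single array. None of 8 striated muscle markers, including Ckm, Acta1 and Mb, passed the test in the same fit, at an adjusted or an unadjusted p of 0.05. Their log2 summed level was 9.05 to 9.17 in knockouts and 9.01 to 9.30 in controls.

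The other restricted isoforms had overlapping groups. Cox4i2, the lung isoform that is induced by low oxygen, measured 5.89, 5.84, 5.76 and 5.74 in knockout 1 to 4, against 5.91, 5.68, 5.95 and 5.86 in control 1 to 4. The muscle isoform Cox7a1 had log2 values of 6.18, 5.98, 6.40 and 6.33 in knockout 1 to 4, against 5.96, 5.96, 6.42 and 6.49 in control 1 to 4. Cox8b, another muscle isoform, was at 6.32, 6.55, 5.04 and 6.81 in knockout 1 to 4, against 5.48, 5.31, 5.83 and 5.78 in control 1 to 4, with knockout 3 below all controls. Its change was 0.58 ± 0.30 (adjusted p = 0.302), and without knockout 3 it was 0.96 and passed (adjusted p = 0.00392). The isoforms known from testis gave small differences. Cox6b2 measured 6.23, 6.29, 6.38 and 6.35 in knockout 1 to 4, against 5.97, 6.08, 6.81 and 6.32 in control 1 to 4. Cox7b2 had log2 values of 3.48, 3.41, 3.44 and 3.42 in knockout 1 to 4, against 3.22, 3.33, 3.53 and 3.54 in control 1 to 4. Cox8c was at 5.66, 5.41, 5.36 and 5.68 in knockout 1 to 4, against 5.45, 5.60, 5.79 and 5.66 in control 1 to 4. Their changes lay between -0.10 and 0.03, and none passed the test (adjusted p = 0.680 to 0.974).

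Ndufa4, first assigned to complex I and later to complex IV, measured 9.85, 9.93, 10.18 and 10.52 in knockout 1 to 4, against 9.78, 9.72, 9.80 and 9.77 in control 1 to 4. The groups stood apart by 0.06, but the change of 0.35 ± 0.13 did not pass (adjusted p = 0.127). Its relative Ndufa4l2, induced by low oxygen, had log2 values of 5.32, 5.23, 5.26 and 5.33 in knockout 1 to 4, against 5.40, 5.06, 5.51 and 5.38 in control 1 to 4 (change -0.05 ± 0.10).

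Cox6a2 has a neighbour that rose with it. In RefSeq gene order, the tested genes on one side of Cox6a2 are Itgad, Itgax and Itgam, which encode integrin alpha chains of leukocytes. Itgax, the CD11c gene, was at 9.15, 9.21, 9.55 and 9.35 in knockout 1 to 4, against 6.68, 6.81, 7.88 and 6.29 in control 1 to 4. Control 3 was the highest control in Itgax, as in Cox6a2, and the change was 2.40 ± 0.26 (adjusted p = 0.000290). Itgad, which lies between Itgax and Cox6a2, changed by -0.03 ± 0.10, and Itgam, the CD11b gene used for sorting, by -0.09 ± 0.10 (adjusted p = 0.929 and 0.684). On the other side, 9130023H24Rik changed by -0.08 ± 0.15 and Armc5 by 0.23 ± 0.10 (adjusted p = 0.843 and 0.184).

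**Figure D3:**
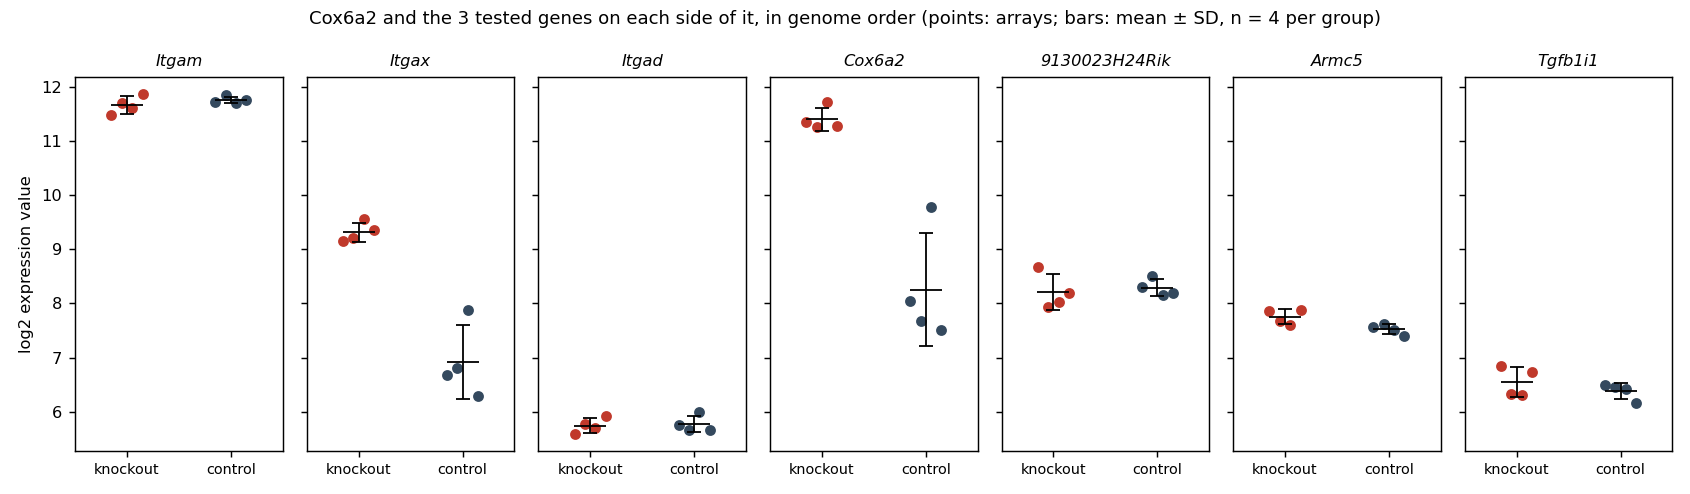
Log2 expression values by array for Cox6a2 and the 3 tested genes on each side of it, in genome order, knockout left of control in each panel, with bars for the mean ± SD (n = 4 per group). Cox6a2 and Itgax have all knockout arrays above all control arrays, and in the other 5 genes the groups overlap.

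In complex V, 3 of 5 subunits of the F1 head and 8 of 12 of the membrane part and stalk rose. Atp5e, the small epsilon subunit of the central stalk, was at 10.69, 12.01, 11.28 and 11.28 in knockout 1 to 4, against 9.83, 9.83, 10.22 and 10.19 in control 1 to 4. Knockout 2 was the highest, and the change of 1.30 ± 0.22 (SE, adjusted p = 0.00268) was 1.07 without it. Atp5d, the delta subunit beside it, measured 9.15, 9.30, 9.64 and 9.68 in knockout 1 to 4, against 8.71, 8.79, 8.95 and 8.63 in control 1 to 4 (change 0.67 ± 0.13). The gamma subunit Atp5c1 changed by 0.31 ± 0.09 (adjusted p = 0.0477), and its call was lost in each of the 8 fits without 1 array and under each of the 3 scalings tried. The 2 large F1 subunits did not pass: Atp5b, the catalytic beta subunit, changed by 0.25 ± 0.11, and the alpha subunit Atp5a1, at 9.88, 10.03, 9.97 and 10.29 in knockout 1 to 4, against 10.04, 9.91, 9.78 and 9.67 in control 1 to 4, changed by 0.19 ± 0.11.

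Atp5mpl, a small membrane proteolipid of the synthase, was at 10.74, 10.83, 11.18 and 11.26 in knockout 1 to 4, against 10.02, 9.98, 10.35 and 10.10 in control 1 to 4 (change 0.89 ± 0.13, adjusted p = 0.00113). The gap between the groups was 0.39. Of the 3 genes for the proton-carrying c ring, Atp5g2 measured 10.91, 10.75, 11.11 and 11.24 in knockout 1 to 4, against 10.19, 10.25, 10.46 and 10.30 in control 1 to 4 and rose by 0.70 ± 0.11. Atp5g1 had log2 values of 9.36, 9.37, 10.03 and 10.13 in knockout 1 to 4, against 9.02, 9.27, 9.41 and 9.27 in control 1 to 4 (change 0.48 ± 0.17, adjusted p = 0.118). Atp5g3 was at 9.56, 9.63, 9.95 and 10.25 in knockout 1 to 4, against 9.66, 9.62, 9.47 and 9.31 in control 1 to 4 (change 0.34 ± 0.15, adjusted p = 0.208). Atp5g1 and Atp5g3 overlapped between groups, while all 3 probe sets of Atp5g2 rose, by 0.64 to 0.72.

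Atp5j2, subunit f, measured 10.46, 10.38, 10.69 and 10.73 in knockout 1 to 4, against 10.03, 10.01, 10.11 and 10.03 in control 1 to 4 (change 0.52 ± 0.10). Atp5l, subunit g, had log2 values of 11.07, 11.00, 11.31 and 11.29 in knockout 1 to 4, against 10.66, 10.78, 10.80 and 10.93 in control 1 to 4 (change 0.38 ± 0.10). The groups stood apart in both, although the call of Atp5l was lost after cyclic loess (change 0.15, adjusted p = 0.343) and quantile normalization (0.14, adjusted p = 0.403) and in 5 of the 8 fits without 1 array. The stalk subunits Atp5h and Atp5j rose by 0.47 and 0.48, subunit e (Atp5k) by 0.66 and Atp5md, also known as DAPIT, by 0.74. Without 1 array, Atp5j lost its call in 3 of 8 fits, Atp5md in 2 and Atp5k in 1. Atp5o, the OSCP subunit at the top of the stator, changed by 0.47 ± 0.14 (adjusted p = 0.0664), and Atp5pb by 0.19 ± 0.12.

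Among the genes that do not encode subunits, Cox7a2l rose and the assembly factors did not. Cox7a2l, which joins complexes III and IV in supercomplexes, was at 10.37, 10.18, 10.37 and 10.45 in knockout 1 to 4, against 9.80, 9.54, 9.85 and 9.38 in control 1 to 4. The groups were 0.34 apart, with a change of 0.70 ± 0.12 (adjusted p = 0.00234). The 7 complex I assembly factors Ndufaf1 to Ndufaf7 had changes of -0.23 (Ndufaf7) to 0.16 (Ndufaf3), a median of 0.02, and 0 passed the test in either direction. Of 7 complex I assembly genes with other names 0 passed in either direction, also at an unadjusted p under 0.05 in the limma fit.

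Other genes of the pathway gave scattered calls, all of them higher. Over all tested genes 5.38% were higher and 4.17% lower, and at a mean log2 value of 8 or higher 12.7% and 11.5%. The lists are short, and their counts were not tested against these shares. Complex II takes electrons from succinate, and its 8 listed genes are the subunits Sdha to Sdhd and the assembly factors Sdhaf1 to Sdhaf4. Of these 8, 1 rose, the iron-sulfur subunit Sdhb by 0.47 ± 0.13. At an unadjusted limma p under 0.05, 3 were higher and 0 lower. Sdhc (0.35 ± 0.10, adjusted p = 0.0583) did not pass, although every knockout array lay above every control array. Sdhd (0.15) and Sdha (0.12) did not pass either. The electron carrier Cycs, cytochrome c, rose by 0.50 ± 0.13, but its groups overlapped, with knockout 1 at 8.78 and control 2 at 8.80. Cycs has 3 probe sets, and only the one with the highest mean is given. Cyc1, the cytochrome c1 of complex III, changed by 0.11 and did not pass. Of 6 complex III assembly genes, Uqcc2 rose by 0.96 ± 0.17. Of 18 measured complex IV assembly genes, 3 rose: Coa5 (0.58), the copper chaperone Cox17 (0.55) and the hypoxia-inducible Higd1a (0.95). Of 4 genes for complex V assembly and regulation 0 passed, and 2 were higher at an unadjusted p under 0.05 in the limma fit. Of 11 genes of ubiquinone synthesis, Coq7 rose by 0.78 ± 0.14. Of 15 transcriptional regulators and mitochondrial DNA maintenance genes, 1 rose, Ppargc1b, a coactivator of respiratory chain genes, by 0.48 ± 0.14 (adjusted p = 0.0457). Its mean log2 level was 6.04 in knockouts and 5.56 in controls, and its call was not followed under the alternatives. The other 14, Nrf1 (-0.24), Gabpa (-0.14) and Tfam (0.02) among them, did not pass. Gabpb1 (-0.39, adjusted p = 0.0662) was lower at an unadjusted limma p under 0.05. The median change of the 15 was -0.04. Of the mitochondrially encoded subunits 2 were measured: ND3 rose by 0.41 ± 0.11, and COX2 changed by 0.06 ± 0.08. COX2 lay at 12.44 to 12.59 in every array. Each of the 2 genes has 2 probe sets, and only the one with the higher mean is given. Whether these probe sets separate the mitochondrial genes from similar sequences in nuclear DNA was not checked.

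The span of the genes was set beside their changes. Over the 85 genes, Spearman's rho between the span of the gene in RefSeq and its log2 change was -0.39, a description over genes that share the same arrays. The genes that rose had a median span of 5850.5 bp, against 9029 bp for those not called. The medians ran the same way in complexes I and III (4866 against 10095 bp, and 3367.5 against 8999.5 bp) and the other way in complexes IV and V (5985 against 1860 bp, and 7177 against 6745 bp). The complex IV genes not called are mostly tissue-restricted isoforms. Among the 9 broadly expressed complex IV subunits, the 8 that rose had a median of 6128 bp, and the 1 not called spanned 15100 bp. Among the 3972 of all tested genes with a mean log2 value of 8 or higher, 25.7% of the shortest 993 (up to 9744 bp) were higher in knockouts and 5.24% lower, while 5.54% of the longest 993 were higher and 20.1% lower. Of the 49 respiratory chain and ATP synthase genes in that shortest bin 34 rose (25.7% of all genes there), and of the 12 in the next bin 5 rose (12.7% of all genes there). The span includes introns and is not the length of the mRNA, and its part in the result was not tested.

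**Figure D4:**
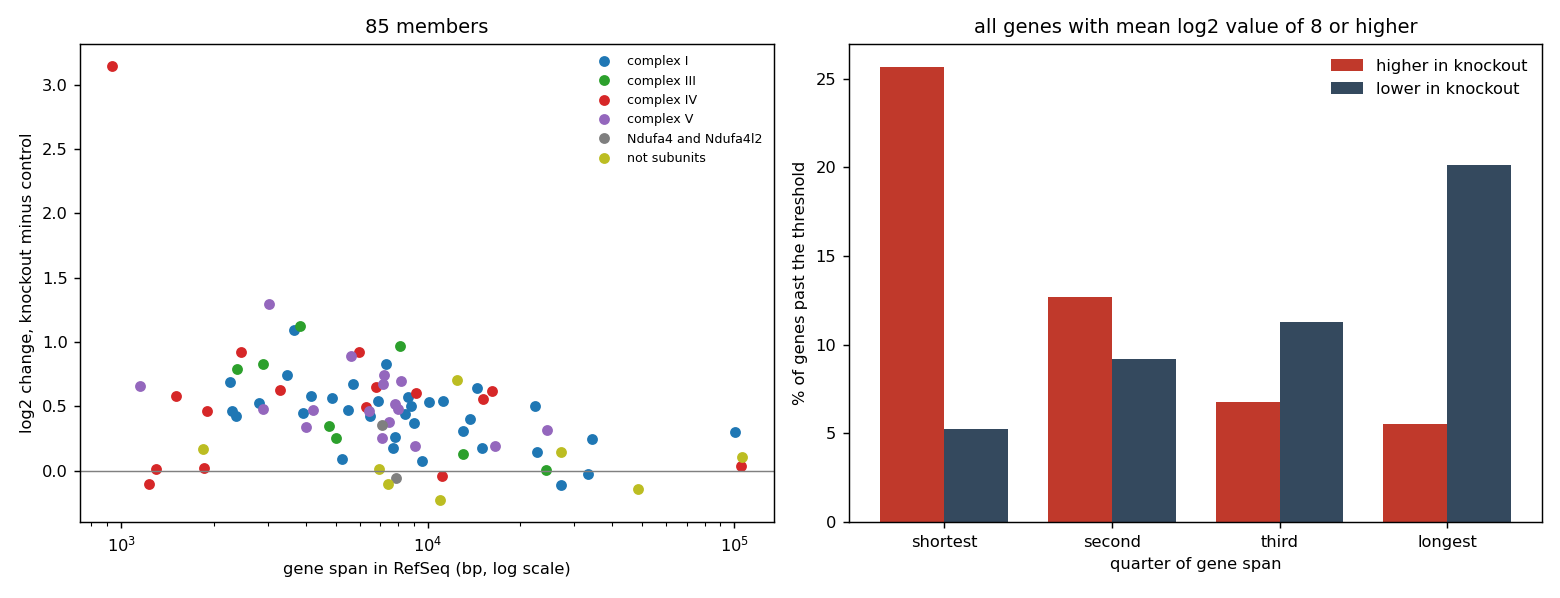
The left panel sets the log2 change of each of the 85 genes, knockout minus control, against the span of the gene in bp on a log scale, coloured by complex. The right panel gives the percentage of genes higher (left bar) and lower (right bar) in knockouts for each of 4 bins of gene span among 3972 genes with a mean log2 value of 8 or higher, from 25.7% and 5.24% in the shortest bin to 5.54% and 20.1% in the longest.

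Markers of other cell types were set beside these changes. Astrocyte markers had a log2 summed level of 9.95 to 10.11 in knockouts and 9.74 to 9.89 in controls. Gfap (1.28) and Aldoc (0.76) were higher among 8. The other 6 did not pass: S100b (0.57), Aldh1l1 (0.27), Slc1a2 (0.26), Aqp4 (-0.02), Slc1a3 (-0.10) and Gja1 (-0.70). Oligodendrocyte markers were at 9.40 to 9.54 in knockouts and 9.21 to 9.37 in controls, with Mbp (0.59) higher among 7. Their other 6 did not pass: Cldn11 (0.06), Olig1 (0.05), Mobp (0.02), Mag (-0.06), Cnp (-0.09) and Mog (-0.24). Mog was lower at an unadjusted limma p under 0.05. Border macrophage markers were at 8.64 to 9.33 in knockouts and 9.33 to 9.99 in controls, with Ms4a7 higher (0.65) and Pf4 (-1.30), Mrc1 (-1.55), Lyve1 (-0.86) and F13a1 (-0.59) lower among 7. Neuronal markers (8.65 to 8.74 in knockouts, 8.56 to 8.73 in controls) and neutrophil markers (12.73 to 13.55 in knockouts, 11.48 to 14.18 in controls) overlapped between the groups. The neutrophil value of 11.48 was that of control 1, and the other controls were at 13.49 to 14.18. Of 7 endothelial markers Flt1 was higher (1.99) and Pecam1 lower (-1.56), at 8.59 to 9.22 in knockouts and 8.57 to 9.03 in controls, and none of 5 T and B cell markers passed the limma test, at an adjusted or an unadjusted p of 0.05, nor did the 1 red blood cell marker measured. The part of these markers in the changes of the respiratory chain and ATP synthase genes was not tested.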

How the data were processed

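RNA from sorted microglia (RNA integrity number of at least 8, 5.775 ng amplified per sample, per the labels' protocols) was hybridised to 1 Affymetrix gene array per sample. The deposited values are on a log2 scale (2.04 to 13.99) and were made by the authors with RMA, per the submitters' processing notes, which name no software version; base 2 is inferred from the values. Of 28874 probe sets, 21789 had 1 gene symbol in the platform annotation, 1621 had several and 5464 had none, and only those with 1 symbol were used. The 19938 genes were fitted with limma 3.58.1 (R 4.3.3, lmFit and eBayes, two-sided, no covariate and no filter on low values), with Benjamini-Hochberg adjustment over all of them and a threshold of 0.05. The fit was tested on simulated data with independent noise in each gene, so effects shared by the genes of an array were not covered. Summed marker levels are log2 of the sum of unlogged values, and gene spans and promoter windows come from RefSeq (GRCm38.p6). No source used here names a genome build for the array, so spans serve only to rank genes. 6 probe sets that name one of the genes among several symbols were not used.

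All genes that passed the test are named. Values in every array are given for up to 5 genes with the lowest adjusted p per complex, the largest change and highest mean in each, and isoform families with a tissue-restricted form; those of Ndufs1, Uqcrc2 and Atp5a1 were added after their values were seen. The genes and lists were chosen with earlier results of these data known. Alternatives were a level filter, quantile, median and cyclic loess normalization, mean of probe sets, a trended robust prior, array weights, a replicate block, a threshold of 0.01 and arrays left out. Same-numbered knockout and control arrays had correlations of their deviations of 0.16, -0.06, 0.01 and 0.01, so the numbers were not taken to pair the samples.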

Additional observations from a re-analysis of the deposited data

Results flagged for a closer look

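In 4 of 170 groups of 4 arrays, 1 array lay far from the others, with a gap to the nearest of the others above Dixon's critical value; chance gives about 1 in 20. Control 1 was the distant array in 3 of them. Ndufs5 was at 10.68 in control 1, against 9.23 in the nearest other control. Ndufs6 was at 8.11 there, with the nearest control at 8.35, and Uqcrq at 8.41, with the nearest at 9.09. Cox4i1 was at 10.25 in control 3, with the nearest control at 9.90.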

How the results depend on the processing

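None of the 42 genes that rose changed sign under the alternatives run, and 19 of the 42 that rose passed under all 18 alternatives at an adjusted p of 0.05; 28 passed whichever single array was left out. Leaving out 1 array gave 30 to 47 of the 85 genes higher, 11 to 20 in complex I, 4 to 4 in complex III, 6 to 10 in complex IV and 7 to 12 in complex V, and 753 to 1162 genes higher and 507 to 960 lower over all genes. Complex I fell to 11 without knockout 3, knockout 4 or control 2, and complex V to 7 without knockout 3 or control 1. At an adjusted p under 0.01, 567 of all genes were higher and 358 lower, with 22 of the 85 higher, 7 in complex I, 5 in complex IV and 6 in complex V. A fit that left out control 1, control 3 and knockout 2 together (added once the data had been seen) called 649 genes higher and 494 lower, with 24 of the 85, 8 in complex I and 5 in complex V; fewer arrays were fitted. With the replicate block, 44 of the 85 genes were higher, 39 of the 42 among them, and over all genes 1029 were higher and 826 lower; Ndufb10, Ndufa13 and Atp5c1 lost their calls and Ndufa5, Ndufa11, Ndufa12, Atp5g1 and Atp5o gained one (adjusted p = 0.0124 to 0.0470). Quantile normalization gave 38 of 85 (37 of the 42) and cyclic loess 38 (36 of the 42), with the median of all genes at -0.02 and -0.01, and the median change of complex IV was 0.31 under quantile normalization and 0.36 under cyclic loess; the cause of the lost calls was not tested. The median over the 85 genes lay between 0.36 and 0.53 under the alternatives run. The 4 arrays per group limit what can be told apart.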
